A study of Mus musculus with 9 samples.

Results

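Collagens are the structural proteins of the extracellular matrix, built from 3 alpha chains that wind into a triple helix. In the brain, fibrillar collagens are found mainly in the meninges and in the walls of larger vessels, type IV collagen forms the network of the basement membrane around capillaries, and a few collagens, among them types XIX and XXV, are made by neurons. The collagen genes described here were all genes whose symbol is Col, a number, the letter a and a number, which gave 42 of the 19505 genes that carry a single symbol on the array. They fell into 8 classes: 11 fibrillar genes, 6 type IV genes, 2 multiplexins of the basement membrane zone, 6 type VI genes of beaded filaments, 8 fibril-associated (FACIT) genes, 3 genes of hexagonal networks, 4 transmembrane genes, and Col26a1 and Col28a1, which were kept as a class of other collagens. Each of the 42 genes was represented by a single transcript, and none of these transcripts had values equal to those of another. Col7a1 and Col12a1 were not analysed here.

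RNA from 9 samples was hybridized to Clariom S Mouse arrays, 3 for each of 3 groups of male mice. SAMP8 TFQA were SAMP8 mice, a senescence-accelerated strain, given 3,4,5-tri-feruloylquinic acid (TFQA) by mouth at 1 mg/kg daily for 37 days. SAMP8 water were mice of that strain given water, and SAMR1 water were mice of the SAMR1 strain, which ages normally, given water. All were adults aged 6 months. SAMP8 and SAMR1 are separate inbred strains, so that accelerated senescence and any other strain difference cannot be told apart, and SAMR1 mice given TFQA were not analysed here. Hippocampus is the tissue in the study's methods, but the labels give brain and neural stem cells. Without detection calls, the signal of a probe does not show whether its gene was expressed, so the labelled cell type could not be checked by the presence of its markers. The mean deviation of 6 mature neuron markers from their averages over the 9 arrays lay between -0.13 and 0.19. That of 6 neural stem cell markers lay between -0.26 and 0.23. Such deviations compare the arrays only and do not identify the tissue.

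The arrays were similar in signal level, with medians between 6.76 and 6.81, and any pair correlated at between 0.9876 and 0.9934. However, SAMP8 TFQA replicate 2 stood apart in markers of striatal neurons. The mean deviation of these 7 genes from their averages over the 9 arrays was 3.58 on the log2 scale in that array, and between -0.94 and 0.78 in the other 8. Collagens past the threshold that lost it, or moved by over 1.5 times, without that array are given with and without it. Neither labels nor methods state that the arrays of a group stem from separate mice, and the p-values therefore reflect the variation among these 9 samples, part or all of which may be technical. In RNA from a whole tissue, fewer cells of a type and less RNA per cell cannot be told apart.

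Values are log2 signals, in which a difference of 1 is a doubling. The threshold given with the study's results was a fold change above 1.1 and an unadjusted p below 0.05, taken here as a linear fold. On the log2 scale no collagen would pass 1.1, since the fold changes lay between -0.68 and 0.83. "Rose" and "fell" are used here for genes with an adjusted p under 0.05 in limma, a linear model fitted over all 9 arrays and all 22206 transcripts. "Higher" and "lower" describe the fold change of genes that passed only the study's threshold. A log2 fold change is followed by its standard error (SE) or its 95% interval.

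No collagen gene rose or fell in any of the 3 comparisons. In SAMP8 water vs. SAMR1 water, 3 collagens were higher and 1 was lower at the study's threshold (limma, unadjusted), which was 9.52% of the 42, while 3.4% of all transcripts were higher and 2.7% were lower. When each array was centred on its median, 2 collagens were higher and 1 was lower. Over all transcripts 754 were higher and 599 lower as deposited, and 624 were higher and 757 lower after centring. At an adjusted p under 0.05 the count was 0 of 42 collagens, and 0.509% of all transcripts passed. The 4 genes were Col1a2, Col4a4 and Col9a3, which were higher, and Col20a1, which was lower.

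After TFQA, that is in SAMP8 TFQA vs. SAMP8 water, 1 collagen was higher and 5 were lower, 14.3% of the 42, against 3.36% of all transcripts higher and 3.76% lower. After centring the arrays, or after quantile normalization again, 2 collagens were higher and 4 were lower. Over all transcripts 746 were higher and 834 lower as deposited, 916 and 698 after centring, and 749 and 853 after quantile normalization. At an adjusted p under 0.05, limma called 0 of 42 collagens and 0.0% of all transcripts. Col24a1 was the gene that was higher, and Col4a4, Col5a2, Col6a6, Col9a3 and Col26a1 were lower. Treated SAMP8 were also compared with SAMR1, and in SAMP8 TFQA vs. SAMR1 water Col1a1, Col1a2, Col6a2 and Col15a1 were higher, against 4.07% of all transcripts, and Col6a5 and Col6a6 were lower, against 3.99%. Here too limma called 0 of 42 collagens at an adjusted p under 0.05, and 0.576% of all transcripts. The 3 comparisons share arrays, so that a gene called in 2 of them has not been observed independently.

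In total 12 collagens passed the study's threshold in at least 1 comparison and 30 passed it in none. The share of all transcripts that did so in at least 1 comparison was not counted. The 12 genes therefore do not show whether collagens passed more often than other transcripts. The median log2 fold change over the 42 genes was 0.08 in SAMP8 water vs. SAMR1 water, -0.03 in SAMP8 TFQA vs. SAMP8 water and 0.04 in SAMP8 TFQA vs. SAMR1 water, beside -0.01, 0.01 and -0.01 over all transcripts. The mean deviation of the 42 genes was between -0.03 and 0.01 in SAMP8 TFQA, between 0.03 and 0.10 in SAMP8 water, and between -0.16 and 0.09 in SAMR1 water, with an SD within groups of 0.076. SAMP8 TFQA thus lay below SAMP8 water by a narrow margin, beside array medians that ranged from 6.76 to 6.81, and SAMR1 overlapped both. In SAMP8 water vs. SAMR1 water 31 of the 42 fold changes were above 0 (73.8%, and 47.0% of all transcripts), compared with 17 of 42 (40.5%, and 50.9%) after TFQA. The spread within groups differed between the members, with an SD of 0.10 for Col28a1, 0.21 for the median gene and 0.47 for Col10a1. Of the 42 genes 22 lay among the dimmest 40% of transcripts, 7 of the 12 genes past the threshold among them.

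**Figure D1:**
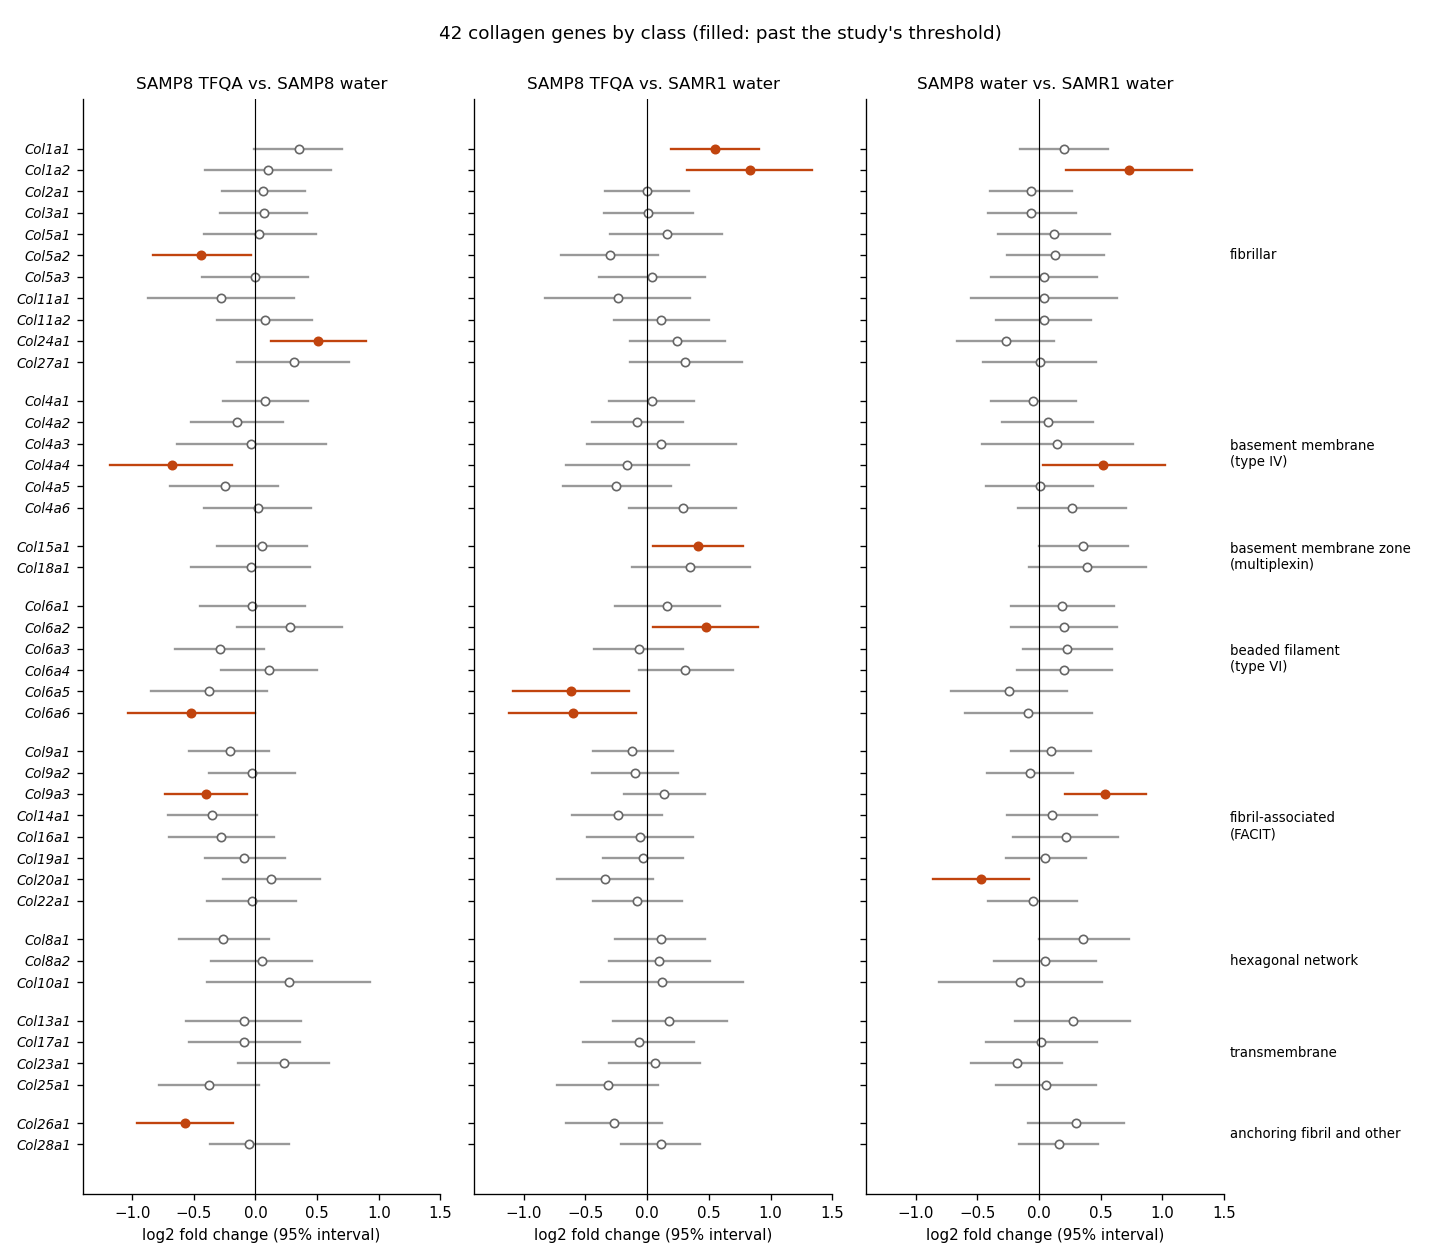
Log2 fold change (point) and 95% interval (line) of the 42 collagen genes by class in the 3 comparisons; filled points passed the study's threshold. Most intervals include 0, and 4 genes passed between the strains on water, 6 after TFQA and 6 in treated SAMP8 vs. SAMR1.

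Type I collagen, the main collagen of skin, bone and meninges, is a trimer of 2 chains from Col1a1 and 1 chain from Col1a2. Col1a2 (chromosome 6, 4505618 to 4541543, GRCm38.p6) had the largest difference of the 42 genes between the strains. Its log2 signals were 6.14, 6.25 and 5.97 in SAMP8 TFQA, 5.72, 6.53 and 5.82 in SAMP8 water, and 5.06, 5.69 and 5.12 in SAMR1 water. All 6 SAMP8 arrays were thus above all 3 SAMR1 arrays, although SAMP8 water replicate 1 exceeded the highest SAMR1 array by little. The log2 fold change was 0.73 (SE 0.23), or 1.66-fold, in SAMP8 water vs. SAMR1 water, with an unadjusted p of 0.00879 and an adjusted p of 0.456 in limma. It was 0.83 (SE 0.23) in SAMP8 TFQA vs. SAMR1 water, with an adjusted p of 0.275. Without SAMP8 water replicate 2, the difference between the strains on water was 0.48, with an unadjusted p of 0.0472 (limma). Both differences stayed past the study's threshold under all 15 alternatives that could be run, which left out the filter on dim transcripts, as Col1a2 was among the dimmest 40%. Between the SAMP8 groups Col1a2 differed by 0.10, with a 95% interval of -0.41 to 0.61.

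Col1a1 (chromosome 11, 94936224 to 94953042) had 6.71, 6.97 and 6.94 in SAMP8 TFQA, 6.71, 6.56 and 6.31 in SAMP8 water, and 6.26, 6.22 and 6.49 in SAMR1 water. The TFQA arrays were above all SAMR1 arrays, while the SAMP8 water arrays overlapped both other groups. Its log2 fold change was 0.55 (SE 0.16) in SAMP8 TFQA vs. SAMR1 water, with an unadjusted p of 0.00575 and an adjusted p of 0.328 (limma). In SAMP8 water vs. SAMR1 water it was 0.20 (interval -0.15 to 0.56), and in SAMP8 TFQA vs. SAMP8 water 0.35 (interval -0.01 to 0.70, unadjusted p 0.0562, limma). The difference between the SAMP8 groups passed the study's threshold after either rescaling of the arrays, without the 40% dimmest transcripts and in a fit without moderation of the variances. Without SAMP8 TFQA replicate 2 it was 0.30, with an unadjusted p of 0.138 (limma), and did not pass.

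The promoter of Col1a2 is shown because this gene carried the largest difference among the collagens. It is the 250 bases before the RefSeq start on the plus strand (GRCm38.p6, chr6:4505368-4505617), and the CCAAT box, 109 bases upstream, is in capitals.
Col1a2: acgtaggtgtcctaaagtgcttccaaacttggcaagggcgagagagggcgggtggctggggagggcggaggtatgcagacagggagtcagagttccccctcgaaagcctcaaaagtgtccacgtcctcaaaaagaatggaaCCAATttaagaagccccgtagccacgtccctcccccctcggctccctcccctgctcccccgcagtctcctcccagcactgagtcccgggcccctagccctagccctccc
The motif CCAAT, searched as such and as its reverse complement, was found in 12 of 37 promoter windows of 34 collagen genes (32.4%), and in 33.8% of 32851 windows of all genes. The motif TATAAA, also searched on both strands, was in 5 of the 37 collagen windows (13.5%), and in 12.4% of all windows. These matches describe the sequence only.

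Col24a1, a fibrillar collagen known from developing bone, was the sole collagen that was higher after TFQA. Its signals were 5.49, 5.61 and 5.65 in SAMP8 TFQA, 5.33, 5.19 and 4.69 in SAMP8 water, and 5.36, 5.27 and 5.39 in SAMR1 water. The 3 TFQA arrays were above all other arrays, and SAMP8 water replicate 3 was the lowest of the 9. The log2 fold change in SAMP8 TFQA vs. SAMP8 water was 0.51 (SE 0.18), with an unadjusted p of 0.0136 and an adjusted p of 0.587 (limma). It was lost from the study's threshold without SAMP8 water replicate 3, where the fold change was 0.32 and the unadjusted p 0.0772 (limma). The corresponding 250 bases before its RefSeq start (chr3:145292222-145292471, plus strand) held neither motif, and are given for comparison with Col1a2.
Col24a1: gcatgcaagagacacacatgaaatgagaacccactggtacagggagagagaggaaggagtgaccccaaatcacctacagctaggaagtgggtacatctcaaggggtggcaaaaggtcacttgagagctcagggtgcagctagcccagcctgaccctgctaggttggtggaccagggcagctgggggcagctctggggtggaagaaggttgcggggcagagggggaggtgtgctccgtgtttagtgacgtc

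Col5a2, a chain of type V collagen that sets the diameter of type I fibrils, was lower after TFQA. Its signals were 5.08, 5.26 and 5.67 in SAMP8 TFQA, 5.56, 5.97 and 5.79 in SAMP8 water, and 5.62, 5.59 and 5.71 in SAMR1 water. TFQA replicate 3 lay within the range of the SAMP8 water arrays, so the groups overlapped. Its log2 fold change was -0.44 (SE 0.18), with an unadjusted p of 0.0334 and an adjusted p of 0.662 (limma), and it was lost in 5 of 15 alternatives. Without SAMP8 TFQA replicate 1 or 2 it was -0.31 and -0.40, and without SAMP8 water replicate 2 or 3 it was -0.34 and -0.43, with unadjusted p-values between 0.0706 and 0.128 (limma). Col5a2 lies 24.6 kb from Col3a1 on chromosome 1. Col3a1, the chain of type III collagen in vessel walls, differed little, with log2 fold changes of -0.06 (interval -0.41 to 0.30) in SAMP8 water vs. SAMR1 water and 0.07 (interval -0.29 to 0.42) in SAMP8 TFQA vs. SAMP8 water.

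The other 7 fibrillar genes, Col2a1, Col5a1, Col5a3, Col11a1, Col11a2, Col27a1 and Col3a1, passed the threshold in no comparison. Of these, Col11a1 and Col11a2 encode chains of type XI collagen, which nucleates fibrils. Col11a2 had 7.72, 7.73 and 7.95 in SAMP8 TFQA, 7.69, 7.89 and 7.59 in SAMP8 water, and 7.38, 7.93 and 7.75 in SAMR1 water, so the 3 groups overlapped. Col11a1 had 7.14, 6.25 and 6.65 in SAMP8 TFQA, 7.18, 6.47 and 7.22 in SAMP8 water, and 7.32, 6.68 and 6.76 in SAMR1 water. Replicate 2 was the lowest array of each group, and the groups overlapped, at -0.28 (interval -0.87 to 0.31) in SAMP8 TFQA vs. SAMP8 water. Col27a1, a fibrillar collagen of cartilage, differed by 0.31 (interval -0.15 to 0.76) in the same comparison, and Col2a1, Col5a1 and Col5a3 by 0.06, 0.03 and 0.00. Over the 11 fibrillar genes the median was 0.04 in SAMP8 water vs. SAMR1 water and 0.07 in SAMP8 TFQA vs. SAMP8 water. In each, 8 of 11 fold changes were above 0 (72.7%, and 47.0% and 50.9% of all transcripts).

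Type IV collagen forms the sheet of the basement membrane, and its 6 genes lie in head-to-head pairs. Col4a1 and Col4a2, whose chains make up most of the capillary basement membrane, differed little in every comparison. Col4a1 had 7.03, 6.97 and 7.30 in SAMP8 TFQA, 7.05, 6.91 and 7.09 in SAMP8 water, and 7.11, 6.89 and 7.19 in SAMR1 water. Col4a2 had 7.77, 7.97 and 7.94 in SAMP8 TFQA, 7.96, 8.14 and 8.04 in SAMP8 water, and 8.14, 7.65 and 8.13 in SAMR1 water. For Col4a1 the log2 fold change was -0.05 (interval -0.39 to 0.30) in SAMP8 water vs. SAMR1 water and 0.08 (interval -0.26 to 0.43) after TFQA. For Col4a2 it was 0.07 (interval -0.30 to 0.44) and -0.15 (interval -0.52 to 0.22). In both genes the 3 groups overlapped.

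Col4a4, whose chain joins those of Col4a3 and Col4a5 in the basement membrane of the kidney glomerulus, was higher in SAMP8 water vs. SAMR1 water, while TFQA-treated SAMP8 were lower than untreated ones. Its signals were 6.49, 5.69 and 5.94 in SAMP8 TFQA, 6.43, 6.69 and 7.05 in SAMP8 water, and 5.98, 6.23 and 6.39 in SAMR1 water. The SAMP8 water arrays were above the SAMR1 arrays by a narrow margin, whereas TFQA replicate 1 lay within the range of the SAMP8 water arrays. In SAMP8 water vs. SAMR1 water the log2 fold change was 0.52 (SE 0.23), with an unadjusted p of 0.0404 and an adjusted p of 0.802 (limma), and 6 of 16 alternatives lost it. Among these were the omissions of SAMR1 water replicate 1 or 2 and of SAMP8 water replicate 2 or 3, where the unadjusted p was 0.137, 0.0688, 0.0671 and 0.167 (limma). After TFQA it was -0.68 (SE 0.23), with an unadjusted p of 0.0111 and an adjusted p of 0.577 (limma). Without SAMP8 TFQA replicate 2 it was -0.51, with an unadjusted p of 0.0548 (limma), and without SAMP8 water replicate 3 it was -0.52, with an unadjusted p of 0.056. Both comparisons share the SAMP8 water arrays, so a high reading there moves the 2 fold changes in opposite directions.

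The genes beside Col4a4 moved less. Col4a3, whose start overlaps that of Col4a4 on chromosome 1, had 5.41, 5.21 and 5.45 in SAMP8 TFQA, 5.07, 5.48 and 5.63 in SAMP8 water, and 5.0, 4.74 and 5.99 in SAMR1 water. Its log2 fold change was 0.15 (interval -0.46 to 0.76) between the strains and -0.04 (interval -0.64 to 0.57) after TFQA. Col4a5 had 4.40, 4.89 and 4.89 in SAMP8 TFQA, 4.95, 5.10 and 4.89 in SAMP8 water, and 4.69, 4.91 and 5.32 in SAMR1 water. Col4a6, the partner of Col4a5 on chromosome X with 1274 bases between them, had 5.14, 5.34 and 5.55 in SAMP8 TFQA, 5.24, 5.0 and 5.74 in SAMP8 water, and 5.11, 5.15 and 4.91 in SAMR1 water. In each of these genes the 3 groups overlapped. The differences between the genes of a pair were not tested.

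The multiplexins are proteoglycan collagens between basement membrane and matrix, and type XVIII releases the angiogenesis inhibitor endostatin. Col15a1 had 4.43, 4.63 and 4.72 in SAMP8 TFQA, 4.42, 4.76 and 4.44 in SAMP8 water, and 4.08, 4.39 and 4.07 in SAMR1 water. All 6 SAMP8 arrays were above the SAMR1 arrays. Its log2 fold change was 0.41 (SE 0.17) in SAMP8 TFQA vs. SAMR1 water, with an unadjusted p of 0.0293 and an adjusted p of 0.557 (limma). Between the strains on water it was 0.36, with an unadjusted p of 0.0522 (limma). Col18a1 had 6.27, 5.70 and 6.43 in SAMP8 TFQA, 6.38, 6.15 and 5.99 in SAMP8 water, and 5.45, 6.01 and 5.88 in SAMR1 water, with a log2 fold change of 0.39 (interval -0.08 to 0.87) between the strains on water. The difference of Col15a1 in SAMP8 TFQA vs. SAMR1 water was lost in 5 of 15 alternatives, among them the omission of SAMP8 TFQA replicate 2 or 3 or of SAMR1 water replicate 1 or 3, where it was 0.35 to 0.40 with unadjusted p-values between 0.0648 and 0.0912 (limma).

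Type VI collagen assembles into beaded filaments from the chains of Col6a1, Col6a2 and a further chain, which is that of Col6a3 or of the related Col6a4, Col6a5 and Col6a6. Col6a1 had 7.17, 7.85 and 7.46 in SAMP8 TFQA, 7.62, 7.39 and 7.55 in SAMP8 water, and 7.07, 7.44 and 7.48 in SAMR1 water, with overlapping groups. Col6a2, whose gene lies 85.2 kb from Col6a1 on chromosome 10, had 6.34, 6.70 and 6.32 in SAMP8 TFQA, 5.94, 6.12 and 6.47 in SAMP8 water, and 5.89, 5.77 and 6.27 in SAMR1 water. The TFQA arrays were above all SAMR1 arrays. Its log2 fold change in SAMP8 TFQA vs. SAMR1 water was 0.48 (SE 0.20), with an unadjusted p of 0.0318 and an adjusted p of 0.569 (limma). Without SAMP8 TFQA replicate 2, which was the highest array, it was 0.35, with an unadjusted p of 0.123 (limma), and the omission of SAMR1 water replicate 1 or 2 lost it as well (0.43 and 0.37, unadjusted p 0.0841 and 0.116). Col6a3 had 6.62, 6.64 and 6.33 in SAMP8 TFQA, 6.77, 6.73 and 6.97 in SAMP8 water, and 6.43, 6.55 and 6.81 in SAMR1 water. The TFQA arrays were below the SAMP8 water arrays, although the difference of -0.29 (interval -0.65 to 0.07) did not pass the threshold.

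Col6a4, Col6a5 and Col6a6 lie in a row on chromosome 9, with 27.8 kb and 27.9 kb between neighbours, and Col6a5 and Col6a6 were lower in SAMP8 TFQA. Col6a5 had 4.38, 4.47 and 4.19 in SAMP8 TFQA, 4.54, 4.76 and 4.88 in SAMP8 water, and 4.48, 5.02 and 5.39 in SAMR1 water. Col6a6 had 5.10, 4.75 and 5.22 in SAMP8 TFQA, 5.40, 5.69 and 5.53 in SAMP8 water, and 5.37, 5.30 and 6.21 in SAMR1 water. In both genes the TFQA arrays were below all 6 arrays of the water groups. The log2 fold change in SAMP8 TFQA vs. SAMR1 water was -0.62 (SE 0.22) for Col6a5 and -0.60 (SE 0.24) for Col6a6, with adjusted p-values of 0.477 and 0.544 (limma). After TFQA it was -0.52 (SE 0.24) for Col6a6, with an unadjusted p of 0.0483 (limma) that 10 of 15 alternatives lost, all omissions of a SAMP8 array except that of TFQA replicate 3 among them (-0.38, unadjusted p 0.167, without TFQA replicate 2), and -0.38 (interval -0.85 to 0.09) for Col6a5. SAMR1 water replicate 3 was the highest array in both genes, and without it the fold changes in SAMP8 TFQA vs. SAMR1 water were -0.40 for Col6a5 and -0.31 for Col6a6, with unadjusted p-values of 0.0781 and 0.132 (limma). Col6a5 also missed the threshold without SAMP8 TFQA replicate 3 (-0.54, unadjusted p 0.0512). Without SAMP8 TFQA replicate 2 the fold changes in that comparison were -0.68 for Col6a5 and -0.47 for Col6a6, with unadjusted p-values of 0.019 and 0.0966 (limma). Col6a4 moved the other way, with 5.69, 5.65 and 5.85 in SAMP8 TFQA, 5.79, 5.79 and 5.28 in SAMP8 water, and 5.37, 5.59 and 5.29 in SAMR1 water, at a log2 fold change of 0.31 (interval -0.07 to 0.70) in SAMP8 TFQA vs. SAMR1 water. All 3 genes were among the dimmest 40% of transcripts.

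**Figure D2:**
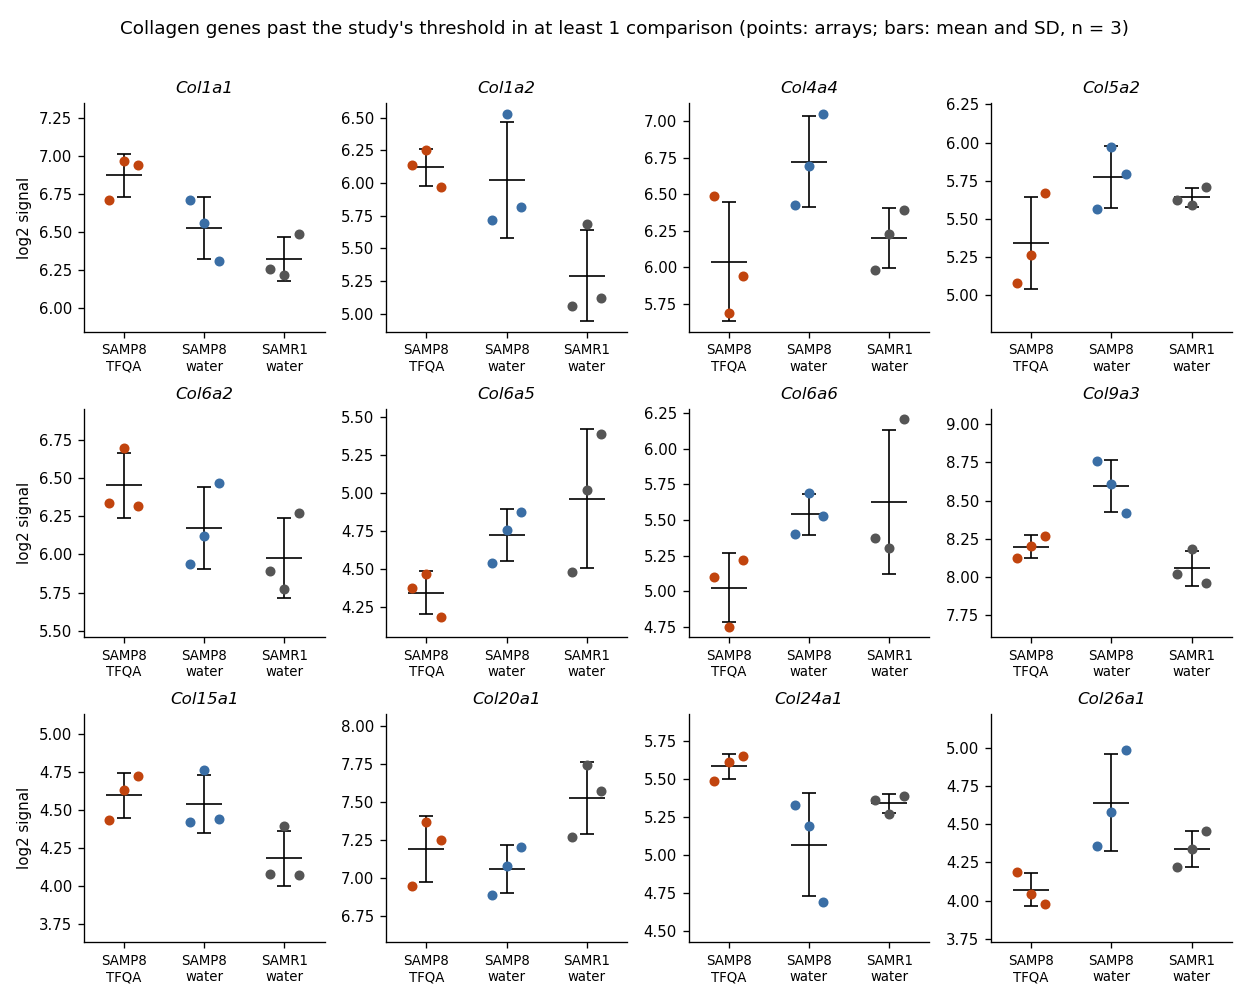
Log2 signals of the 12 collagen genes past the study's threshold in at least 1 comparison, in SAMP8 TFQA, SAMP8 water and SAMR1 water (points, arrays; bars, mean and SD, n = 3). Axes differ between panels. The 3 SAMP8 water arrays of Col9a3 lie above all other arrays, and the SAMP8 arrays of Col1a2 lie above those of SAMR1.

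The FACIT collagens sit on the surface of fibrils. Type IX is a trimer of the chains of Col9a1, Col9a2 and Col9a3, best known from cartilage. Col9a3 (chromosome 2, 180598102 to 180622192) had 8.12, 8.20 and 8.27 in SAMP8 TFQA, 8.76, 8.61 and 8.42 in SAMP8 water, and 8.02, 8.18 and 7.96 in SAMR1 water. The 3 SAMP8 water arrays were above the 6 others. In SAMP8 water vs. SAMR1 water the log2 fold change was 0.54 (SE 0.15), or 1.46-fold, with an unadjusted p of 0.00379 and an adjusted p of 0.302 (limma), and it passed the study's threshold in all 16 alternatives. After TFQA it was -0.40 (SE 0.15), with an unadjusted p of 0.0218 and an adjusted p of 0.612 (limma), and it was -0.36 without SAMP8 TFQA replicate 1 and -0.32 without SAMP8 water replicate 1, with unadjusted p-values of 0.0528 and 0.0908. TFQA and SAMR1 arrays overlapped, at a difference of 0.14 (interval -0.19 to 0.47).

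The other chains of the type IX trimer did not pass the threshold. Col9a1 had 5.74, 6.05 and 6.09 in SAMP8 TFQA, 6.16, 6.10 and 6.26 in SAMP8 water, and 6.08, 6.08 and 6.07 in SAMR1 water. The SAMP8 water arrays were the highest here too, by a small amount, at log2 fold changes of 0.10 (interval -0.23 to 0.42) and -0.21 (interval -0.54 to 0.11). Col9a2 differed by -0.07 (interval -0.42 to 0.28) between the strains and by -0.03 (interval -0.38 to 0.32) after TFQA.

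Col20a1, a further FACIT gene, lies 361.1 kb from Col9a3 on chromosome 2 and was lower in SAMP8 water. Its signals were 6.95, 7.37 and 7.25 in SAMP8 TFQA, 6.89, 7.08 and 7.20 in SAMP8 water, and 7.27, 7.74 and 7.57 in SAMR1 water. All SAMP8 water arrays were below the SAMR1 arrays, and the TFQA arrays overlapped both. SAMP8 water vs. SAMR1 water differed by -0.47 (SE 0.18), with an unadjusted p of 0.022 and an adjusted p of 0.644 (limma). It was lost in 3 of 16 alternatives, those without SAMP8 water replicate 1, SAMR1 water replicate 2 or SAMR1 water replicate 3, where the unadjusted p was 0.0839, 0.0912 and 0.055 (limma).

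Col16a1 had 9.83, 10.11 and 10.45 in SAMP8 TFQA, 10.46, 10.27 and 10.49 in SAMP8 water, and 9.89, 10.43 and 10.25 in SAMR1 water. Col19a1, which interneurons make and which takes part in synapse formation, had 5.42, 5.57 and 5.57 in SAMP8 TFQA, 5.51, 5.62 and 5.69 in SAMP8 water, and 5.68, 5.38 and 5.60 in SAMR1 water. In both genes all 3 groups overlapped. For Col19a1 the intervals were -0.27 to 0.38 in SAMP8 water vs. SAMR1 water and -0.41 to 0.24 in SAMP8 TFQA vs. SAMP8 water. Col14a1, which binds fibrils of type I collagen, differed by -0.35 (interval -0.71 to 0.01, unadjusted p 0.058, limma) after TFQA, and Col22a1, found at junctions of tissues, by -0.03 (interval -0.39 to 0.33). Over the 8 FACIT genes 5 were above 0 in SAMP8 water vs. SAMR1 water (62.5%, and 47.0% of all transcripts). In SAMP8 TFQA vs. SAMP8 water 1 was above 0 (12.5%, and 50.9%), with a median of -0.15. Both comparisons share the SAMP8 water arrays, so a high reading there moves the 2 counts in opposite directions.

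The hexagonal network collagens line vessels and the cornea (type VIII) or belong to growing cartilage (type X). Col8a1 had 4.22, 4.59 and 4.46 in SAMP8 TFQA, 4.86, 4.55 and 4.63 in SAMP8 water, and 4.48, 4.12 and 4.35 in SAMR1 water. The SAMP8 water arrays were above the SAMR1 arrays, at 0.36 with an unadjusted p of 0.0515 (limma). Col8a2 had 8.51, 8.51 and 8.54 in SAMP8 TFQA, 8.53, 8.49 and 8.38 in SAMP8 water, and 7.99, 8.51 and 8.75 in SAMR1 water, so that only the SAMR1 arrays spread widely. Col10a1 had the largest spread within groups of all members and an interval of -0.39 to 0.93 after TFQA.

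The transmembrane collagens are anchored in the cell surface. Col25a1, made by neurons and known as a component of amyloid plaques, had 9.09, 8.37 and 8.75 in SAMP8 TFQA, 9.03, 9.03 and 9.28 in SAMP8 water, and 9.02, 9.03 and 9.12 in SAMR1 water. The 2 low arrays were TFQA replicates 2 and 3. The log2 fold change in SAMP8 TFQA vs. SAMP8 water was -0.38 (interval -0.78 to 0.03), with an unadjusted p of 0.0665 (limma), and -0.19 without SAMP8 TFQA replicate 2. Between the strains on water it was 0.06 (interval -0.35 to 0.46). Col13a1, a collagen of the neuromuscular junction, had 7.77, 7.70 and 8.12 in SAMP8 TFQA, 7.59, 8.00 and 8.28 in SAMP8 water, and 7.39, 7.93 and 7.72 in SAMR1 water. Col13a1, Col17a1 of epithelial hemidesmosomes and Col23a1 passed the threshold in no comparison, with log2 fold changes between -0.18 and 0.28 over the 2 comparisons with SAMP8 water.

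Col26a1, first described in testis and ovary, was lower after TFQA. It had 4.19, 4.04 and 3.98 in SAMP8 TFQA, 4.36, 4.58 and 4.99 in SAMP8 water, and 4.22, 4.34 and 4.46 in SAMR1 water, and the TFQA arrays were below the 6 others. The log2 fold change in SAMP8 TFQA vs. SAMP8 water was -0.57 (SE 0.18), with an unadjusted p of 0.00758 and an adjusted p of 0.561 (limma). It passed the study's threshold in all 15 alternatives that could be run, although the gene was among the dimmest 40% of transcripts. Col28a1, a collagen of peripheral nerve glia, had 7.50, 7.75 and 7.69 in SAMP8 TFQA, 7.68, 7.60 and 7.82 in SAMP8 water, and 7.54, 7.48 and 7.59 in SAMR1 water. Its log2 fold change was 0.16 (interval -0.16 to 0.48) between the strains and -0.05 (interval -0.37 to 0.27) after TFQA.

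Groups without overlap were counted as a second description. In SAMP8 water vs. SAMR1 water the arrays of 8 of 42 collagens did not overlap (19.0%, against 11.8% of all transcripts), 7 of them higher in SAMP8 water: Col1a2, Col4a4, Col8a1, Col9a1, Col9a3, Col15a1 and Col28a1. After TFQA this held for 7 of 42 (16.7%, against 11.8%), and 6 were lower after TFQA: Col6a3, Col6a5, Col6a6, Col9a1, Col9a3 and Col26a1. Between treated SAMP8 and SAMR1 it held for 9 of 42 (21.4%, against 12.3%), 6 of them higher and 3 lower. Without SAMP8 TFQA replicate 2, the study's threshold was passed in SAMP8 TFQA vs. SAMP8 water by 1 higher and 3 lower collagens (Col24a1, and Col9a3, Col14a1 and Col26a1), against 3.65% of all transcripts higher and 3.81% lower. In SAMP8 TFQA vs. SAMR1 water it was passed by 3 higher and 1 lower (Col1a1, Col1a2 and Col18a1, and Col6a5), against 4.43% and 4.01%.

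Markers of cells that make collagen, and of other cells the tissue could hold, were set beside these values. All 13 markers of meningeal fibroblasts measured were above 0 in SAMP8 water vs. SAMR1 water, with a median log2 fold change of 0.98. Of these markers 10 passed the study's threshold (76.9%, against 3.4% of all transcripts higher). Their mean deviation was 0.34, -0.20 and 0.58 in SAMP8 TFQA, 0.13, 0.86 and 0.08 in SAMP8 water, and -0.81, -0.48 and -0.51 in SAMR1 water. Within SAMR1 water these values ordered the arrays as Col1a2 did, whereas in the SAMP8 groups the orders differed. Replicate 2 had the highest of both in SAMR1 water and in SAMP8 water. In SAMP8 TFQA it had the lowest marker value and the highest Col1a2 signal. After TFQA the median of these markers was -0.07, with 1 of 13 lower (Lum) and none higher, against 3.76% and 3.36% of all transcripts. The mean deviation of the 11 fibrillar collagens was 0.07, 0.04 and 0.11 in SAMP8 TFQA and 0.00, 0.08 and -0.07 in SAMP8 water. In SAMR1 water it was -0.17, -0.04 and -0.03, and the range over the arrays was much narrower than that of the markers. Of these collagens, all but Col1a1, Col11a1 and Col11a2 were among the dimmest 40% of transcripts. Whether low signal narrowed their range was not tested.

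Some markers of vascular cells also differed between the strains. Of 9 pericyte markers, 3 were higher and 1 was lower in SAMP8 water vs. SAMR1 water, against 3.4% and 2.7% of all transcripts. Their fold changes were split, with 5 above 0, 4 below 0 and a median of 0.14. Among them Vtn (vitronectin) rose by 1.06 (SE 0.18, adjusted p 0.0215, limma). Of 11 endothelial markers 2 were higher, with a median of 0.15, and of 4 smooth muscle markers 2 were higher, against the same 3.4%. After TFQA 1 endothelial, 2 pericyte and 2 neural stem cell markers were higher and none lower, against 3.36% and 3.76% of all transcripts. The endothelial mean deviation was 0.11 to 0.24 in SAMP8 TFQA and -0.01 to 0.04 in SAMP8 water. For pericytes it was 0.11 to 0.21 and -0.08 to 0.07, and for neural stem cells 0.04 to 0.23 and -0.26 to -0.11. The SAMP8 groups did not overlap in these lists, but did for meningeal fibroblasts and smooth muscle. The mean deviation of the 6 type IV genes was -0.10, -0.12 and 0.04 in SAMP8 TFQA, -0.02, 0.08 and 0.27 in SAMP8 water, and -0.13, -0.21 and 0.19 in SAMR1 water, with overlap of the 3 groups. No marker was listed at 0, since the lowest log2 signal of any array was 2.06. For markers of choroid plexus epithelium and of hippocampal neurons the SAMP8 groups overlapped, with no adjusted p below 0.561 between them (limma). All 9 choroid plexus markers were above 0 in SAMP8 water vs. SAMR1 water (7 higher, against 3.4% of all transcripts, median 0.79) and below 0 after TFQA (3 lower, against 3.76%, median -0.56). Their mean deviation was 0.36, -0.54 and -0.20 in SAMP8 TFQA, 0.37, 0.85 and 0.16 in SAMP8 water, and -1.0, 0.25 and -0.25 in SAMR1 water, so the groups overlapped. Col4a4 and Col9a3 also had their highest mean in SAMP8 water, as did many other collagens, among them Col5a2, Col6a3, Col16a1 and Col26a1. All 11 hippocampal neuron markers were below 0 after TFQA (2 lower, against 3.76% of all transcripts, median -0.32). Their mean deviations were 0.05, -0.65 and -0.09 in SAMP8 TFQA, 0.47, -0.08 and 0.22 in SAMP8 water, and 0.14, 0.08 and -0.12 in SAMR1 water. The SAMP8 groups overlapped, and the lowest value was that of SAMP8 TFQA replicate 2, the array that stood apart in striatal markers. The part of any of these cells in the collagen differences was not tested.

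**Figure D3:**
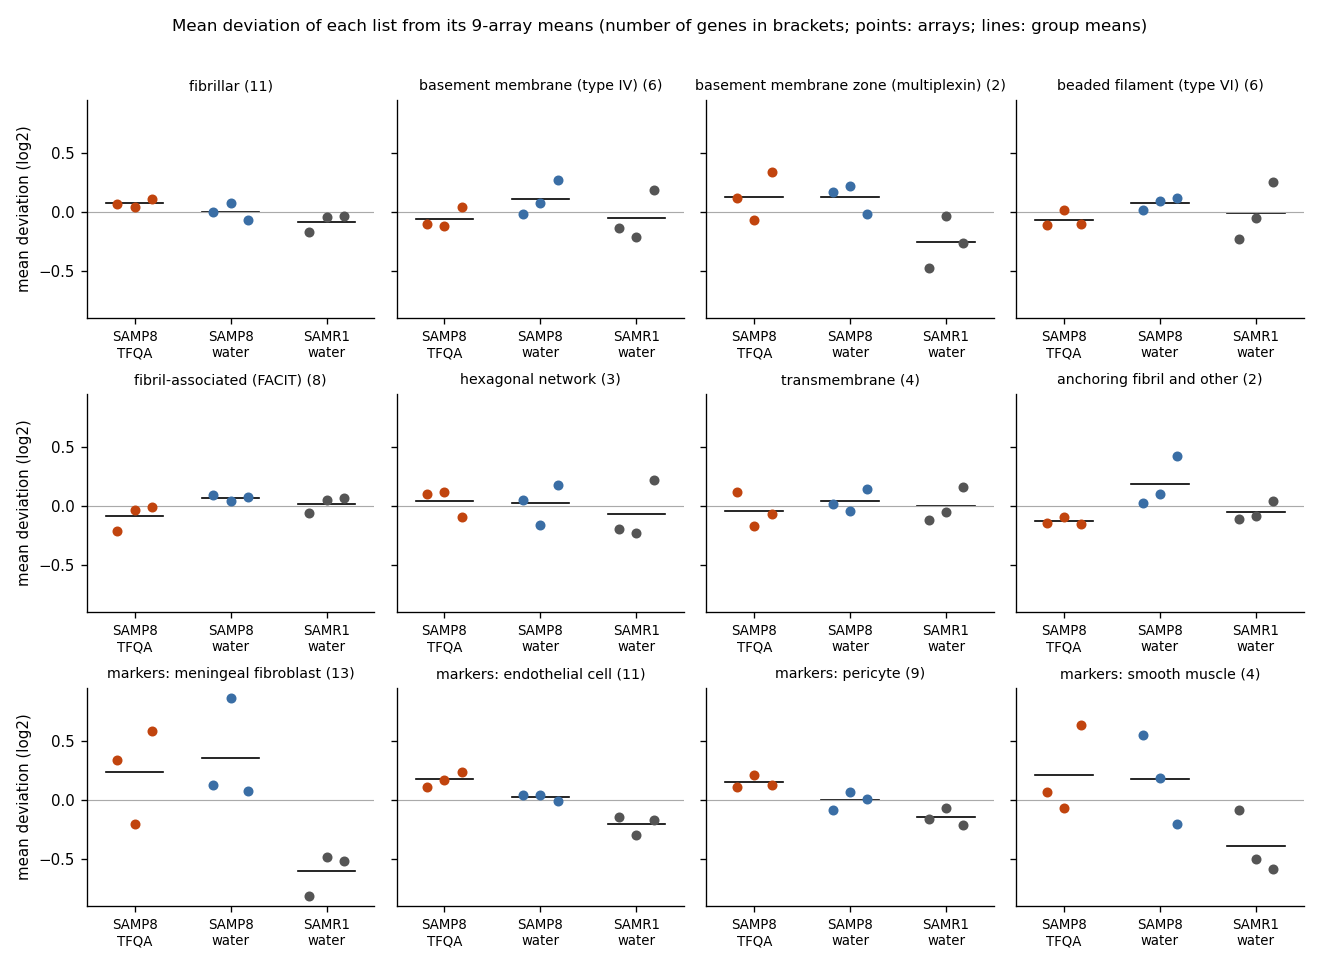
Mean deviation (log2) of each collagen class and of 4 marker lists from the 9-array means in SAMP8 TFQA, SAMP8 water and SAMR1 water (points, arrays; lines, group means; number of genes in brackets). The meningeal fibroblast markers lie between -0.81 and -0.48 in SAMR1 water and between -0.20 and 0.86 in the SAMP8 groups. The fibrillar collagens, most of them among the dimmest 40% of transcripts, range from -0.17 to 0.11.

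Proteins that fold, cut, cross-link, degrade or bind collagen were examined through 5 lists, of which 63 of 70 genes were measured. In limma 1 of them fell in each comparison with SAMR1, and none rose or fell after TFQA. This was P3h2, which encodes prolyl 3-hydroxylase 2, an enzyme that modifies prolines of type IV collagen in particular, and lies on chromosome 16 (25959284 to 26105813). Its signals were 7.70, 6.81 and 6.88 in SAMP8 TFQA, 6.95, 6.86 and 7.02 in SAMP8 water, and 8.94, 8.24 and 8.74 in SAMR1 water. All 6 SAMP8 arrays were below the SAMR1 arrays. P3h2 fell by 1.70 on the log2 scale in SAMP8 water vs. SAMR1 water (SE 0.25, adjusted p 0.00533, limma) and by 1.51 in SAMP8 TFQA vs. SAMR1 water (adjusted p 0.0124). The first call held in 15 of 16 alternatives (adjusted p 0.0014 to 0.195) and the second in 11 of 16 (adjusted p 0.00237 to 0.248). The second was lost in the fit without moderation of the variances and when SAMR1 water replicate 1 (adjusted p 0.0834), SAMR1 water replicate 3 (adjusted p 0.0738), or SAMP8 TFQA replicate 2 or 3 was left out (limma). After TFQA the difference was 0.19 (interval -0.35 to 0.72), which rested on TFQA replicate 1.

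Among the other folding and modification genes, the 3-hydroxylation complex of type I collagen, made of P3h1, Crtap and Ppib, had members in both directions. Ppib (cyclophilin B) had 10.84, 11.06 and 11.23 in SAMP8 TFQA, 11.04, 11.04 and 10.99 in SAMP8 water, and 11.73, 11.42 and 11.64 in SAMR1 water. It was lower in SAMP8 water vs. SAMR1 water by 0.57 on the log2 scale (-0.57, SE 0.16, adjusted p 0.282, limma), and Crtap was higher by 0.55 (adjusted p 0.686). P3h4, a scaffold of lysyl hydroxylation, was lower after TFQA (-0.50, adjusted p 0.592). Without SAMP8 TFQA replicate 2, P3h4 was at -0.44 (unadjusted p 0.051), and Crtap was at 0.40 (unadjusted p 0.111) without SAMP8 water replicate 2 (limma). Of the 16 genes of this list measured, 1 was higher and 2 were lower between the strains on water, with a median of 0.01. Over all transcripts 3.4% were higher and 2.7% lower in that comparison. After TFQA 1 of the 16 was lower, against 3.76% of all transcripts, with a median of 0.00. P4ha3 and Plod1, which hydroxylate proline and lysine, were at -0.38 (unadjusted p 0.11) and -0.37 (unadjusted p 0.084) after TFQA in limma.

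Of 13 genes of procollagen processing and cross-linking, 2 were higher and 1 was lower in SAMP8 water vs. SAMR1 water. Over all transcripts 3.4% were higher and 2.7% lower. Tgm2, a transglutaminase that cross-links matrix proteins, had 6.10, 5.75 and 5.92 in SAMP8 TFQA, 5.93, 5.77 and 5.82 in SAMP8 water, and 5.26, 5.26 and 5.37 in SAMR1 water. All SAMP8 arrays were above the SAMR1 arrays, at log2 fold changes of 0.54 (SE 0.15, adjusted p 0.282) in SAMP8 water and 0.63 (adjusted p 0.137) in SAMP8 TFQA (limma). Bmp1, the procollagen C-proteinase, was lower (-0.42) and its enhancer Pcolce was higher (0.53), both with adjusted p-values above 0.70. Bmp1 was at -0.26 (unadjusted p 0.159) without SAMP8 water replicate 2, and Pcolce at 0.34 (unadjusted p 0.134) without SAMR1 water replicate 1, and other single omissions lost both as well. After TFQA Adamts3, a procollagen N-proteinase, was higher at 0.48 (adjusted p 0.652), or at 0.34 (unadjusted p 0.125) without SAMP8 TFQA replicate 2, and the cross-linking enzyme Lox was at -0.29 (unadjusted p 0.0748).

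Among 11 genes of collagen breakdown, Timp4, an inhibitor of matrix metalloproteinases, had 9.64, 9.77 and 9.87 in SAMP8 TFQA, 10.09, 9.94 and 10.11 in SAMP8 water, and 10.67, 10.58 and 10.34 in SAMR1 water. The 3 groups did not overlap, in the order TFQA, SAMP8 water, SAMR1. Timp4 had a log2 fold change of -0.77 (SE 0.15, adjusted p 0.0506, limma) in SAMP8 TFQA vs. SAMR1 water, which 4 of 16 alternatives brought under 0.05, and -0.48 (adjusted p 0.447) in SAMP8 water vs. SAMR1 water. The collagenase gene Mmp13 was at -0.51 in SAMP8 water vs. SAMR1 water and at 0.45 after TFQA, with adjusted p-values of 0.717 and 0.695 (limma). Without SAMP8 water replicate 1 these were -0.31 and 0.26, with unadjusted p-values of 0.154 and 0.236. Of 8 collagen receptors, Itga2, a subunit of a collagen-binding integrin, was at -0.55 in SAMP8 water vs. SAMR1 water and at 0.50 after TFQA, past the study's threshold in both, but at -0.33 (unadjusted p 0.135) and 0.28 (unadjusted p 0.198) without SAMP8 water replicate 2, and the discoidin domain receptors Ddr1 and Ddr2 were at -0.26 and 0.35 between the strains on water without passing the threshold.

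Type IV collagen is tied to laminin by nidogen, and 15 such basement membrane partners were measured. Lamb2, the laminin beta 2 chain, had 7.84, 8.33 and 8.68 in SAMP8 TFQA, 8.43, 8.92 and 8.87 in SAMP8 water, and 7.91, 7.94 and 7.78 in SAMR1 water. It was higher in SAMP8 water vs. SAMR1 water at 0.86 (SE 0.22, adjusted p 0.191, limma), with no overlap. Nid2 (nidogen 2) was lower after TFQA at -0.58 (adjusted p 0.639), where TFQA replicate 2, at 4.95, was the lowest array. Without it the fold change was -0.33, with an unadjusted p of 0.146 (limma), and without SAMP8 water replicate 2 it was -0.43 (unadjusted p 0.117). Nid1 was at 0.45 in SAMP8 water vs. SAMR1 water (unadjusted p 0.067) and was higher in SAMP8 TFQA vs. SAMR1 water at 0.57 (limma), or at 0.38 (unadjusted p 0.125) without SAMR1 water replicate 2. Over the 63 partner genes, 4 were higher and 6 lower in SAMP8 water vs. SAMR1 water (15.9%, against 6.09% of all transcripts in both directions), and 3 were higher and 2 lower after TFQA (7.94%, against 7.12%). Of the partner genes past the study's threshold in any comparison, P3h2, Ppib, Tgm2, Timp4 and Lamb2 kept it whichever single array was left out, and each of the others lost it in at least 2 such omissions.

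**Figure D4:**
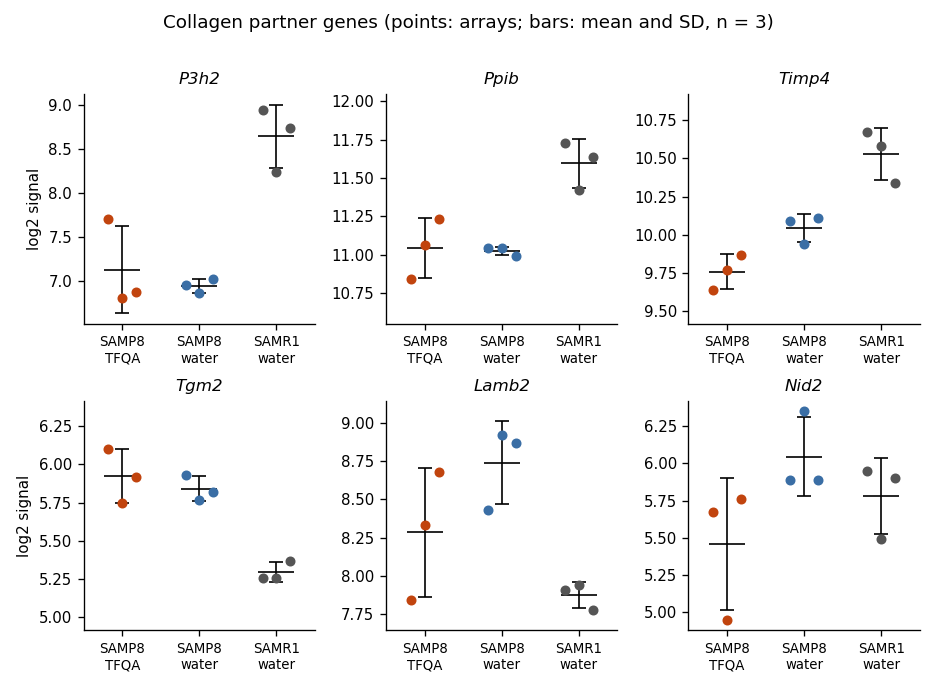
Log2 signals of 6 collagen partner genes in SAMP8 TFQA, SAMP8 water and SAMR1 water (points, arrays; bars, mean and SD, n = 3). Axes differ between panels. The P3h2 arrays lie between 6.81 and 7.70 in the SAMP8 groups and between 8.24 and 8.94 in SAMR1 water.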

How the data were processed

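Total RNA of 9 samples was hybridized to Clariom S Mouse arrays, 3 per group, and groups were taken from the sample labels. Per the study's methods, the authors normalized the arrays by SST-RMA in Transcriptome Analysis Console; the labels name RMA and build mm10. The deposited values were log2 signals, 1 per transcript cluster, with no counts, detection calls or scan dates used here, so the precision rests on 3 arrays per group and the spread between them. Deposited values of different probes were ranked only to set the filter on low means and to choose the members shown.

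Gene symbols came from the platform annotation, which gave 1 symbol to 19572 of 22206 transcripts, and coordinates and promoters from RefSeq (GRCm38.p6). Groups were compared with limma 3.58.1 in R 4.3.3 (1 coefficient per group, all 9 arrays, eBayes defaults), with Benjamini-Hochberg adjustment over all 22206 transcripts. Calls were also counted by criteria given with the study's results (fold change above 1.1, unadjusted p below 0.05); the smallest log2 fold change at such a p was 0.30, so this criterion, taken as a linear fold, removed nothing and the calls rest on p alone. The study's text counts fewer genes once the criterion is applied, and how it was applied there was not settled here. The fit was tested on simulated data. Summaries used pandas 2.3.3 and figures matplotlib 3.10.9.

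Members and lists were chosen with earlier results of these data known, so lists are described by counts and medians without a test. All values were given for members past the study's threshold, the 2 brightest of each class, the type IV pairs, Col19a1 and Col25a1; partners with values were among the 4 of smallest unadjusted p of their list in a main comparison.

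The fits were repeated without each array in turn, on the 2 groups compared alone, with the replicate number as a block, with eBayes set to trend and robust, without moderation, without the dimmest 40% of transcripts, and after rescaling (by quantiles, or to a common array median). The mean of all probes of a gene could not differ, since each collagen had 1 transcript.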

Additional observations from a re-analysis of the deposited data

How the results depend on the processing

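No collagen passed an adjusted p of 0.05 in limma under any alternative, and the median collagen fold change ranged from 0.06 to 0.17 in SAMP8 water vs. SAMR1 water, from -0.07 to -0.02 in SAMP8 TFQA vs. SAMP8 water and from -0.01 to 0.10 in SAMP8 TFQA vs. SAMR1 water when 1 array was left out. Leaving out 1 array gave 2 to 5 collagens higher and 0 to 2 lower in SAMP8 water vs. SAMR1 water, 0 to 2 higher and 2 to 5 lower in SAMP8 TFQA vs. SAMP8 water, and 2 to 4 higher and 0 to 3 lower in SAMP8 TFQA vs. SAMR1 water. The partner genes at an adjusted p under 0.05 numbered 1, 0, and 0 to 1 in the same order. In SAMP8 TFQA vs. SAMP8 water, 2 collagens were higher after quantile normalization again, after centring and without moderation, and 2 were lower without the dimmest 40%. In SAMP8 TFQA vs. SAMR1 water, 2 were higher and 0 lower without the dimmest 40%, and 1 was lower without moderation. For the partner genes at an adjusted p under 0.05 in that comparison, the count was 2 with trend and robust settings, after both rescalings and without the dimmest 40%, and 0 without moderation; in SAMP8 water vs. SAMR1 water it was 0 without moderation. The filter kept 20 of the 42 collagens and removed 7 of the 12 past the threshold, so its counts do not compare with those over 42. Other causes were not tested. Counts or shares over all transcripts were given above only for some rescalings and for the fit without SAMP8 TFQA replicate 2. The remaining counts therefore describe how stable the calls were, and not whether collagens were called more often than other transcripts. P3h2 in SAMP8 TFQA vs. SAMP8 water, at 0.19, ranged from -0.10 without SAMP8 TFQA replicate 1, the opposite sign, to 0.35 without SAMP8 TFQA replicate 2. Samples with the same replicate number correlated at 0 to 0.153 in their deviations, and those with different numbers at -0.113 to 0.069. The same-number values were thus higher as a set, and an effect shared by a replicate number was not tested. The methods name no pairing and not every same-number pair exceeded 0.1, so the numbers were not taken to pair the samples. With the replicate block, 4 collagens were higher and 1 lower in SAMP8 water vs. SAMR1 water, 1 and 5 in SAMP8 TFQA vs. SAMP8 water, and 4 and 3 in SAMP8 TFQA vs. SAMR1 water, with medians of 0.08, -0.03 and 0.04.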
